A study of Mus musculus with 12 samples.

Results

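The transcripts of the transcription factor NRF2 (gene Nfe2l2), its inhibitor KEAP1 (gene Keap1) and 8 classic NRF2 target genes were read in whole kidneys of diseased mice on a control diet or a fisetin diet. The 10 genes were taken by symbol from a deposited table of 55487 genes: Nfe2l2, Keap1, Nqo1, Hmox1, Gclc, Gclm, Txnrd1, Srxn1, Slc7a11 and Ephx1. All 10 were found, and all 10 were among the 17890 genes that passed a filter on low counts and were tested. The mice were males of the B6 background with X-linked Alport syndrome (XLAS), an inherited disease of the type IV collagen network of the glomerular basement membrane, and kidneys were taken at 30 weeks of age. The titles name Col4a5, an X-linked collagen chain gene, and the genotype field reads HET although the animals were males, so no allele status is used here. There were 6 control libraries and 6 libraries from mice fed fisetin, a plant flavonol, at 500 ppm of diet, and the labels name 2 batches, each with 3 libraries per diet. Every library came from a diseased kidney and no healthy kidney was used here. Whether every library is a separate animal is not in the labels, so all p-values describe only the spread between these samples.

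NRF2 is a transcription factor that is made and destroyed continuously. KEAP1, an adaptor of a ubiquitin ligase, holds NRF2 in the cytoplasm and marks it for the proteasome, and when reactive cysteines of KEAP1 are modified by electrophiles or oxidants, NRF2 escapes, enters the nucleus, pairs with a small MAF protein and binds antioxidant response elements. Its targets make glutathione, reduce thioredoxin and peroxiredoxin, and detoxify quinones, epoxides and haem. Because the step under control is protein stability, transcript levels of Nfe2l2 and Keap1 do not measure NRF2 activity, and levels of the targets read it only in part, since most of these genes also answer to other factors.

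The short promoter sequences below are shown because they carry, or lack, the letters to which NRF2 and small MAF proteins are known to bind. RefSeq windows of the GRCm38.p6 assembly, running from 250 bases before to 50 bases after each listed start, were matched for 8 of the 10 genes, Hmox1 and Gclc being without an entry. Exact matches were searched on both strands to TGACNNNGC, the core of the antioxidant response element, and to TGANTCAGC, a form bound by heterodimers with small MAF proteins, which overlaps the AP-1-type motif TGANTCA. Each sequence is written 5′ to 3′ on the strand of its gene, with the match in capitals. The Srxn1 sequence at chr2:152105453-152105513 (plus strand) held TGAGTCAGC, with its first base 45 bases before the start:

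Srxn1: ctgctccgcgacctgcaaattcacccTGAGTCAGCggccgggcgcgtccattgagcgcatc

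Gclm at chr3:122245397-122245457 (plus strand) and Txnrd1 at chr10:82859088-82859148 (plus strand) each held the antioxidant response core on the opposite strand, as TGACGGTGC and TGACAAAGC. Nfe2l2 itself held TGACTCCGC at chr2:75704869-75704913 (minus strand), with its first base 240 bases before the start:

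Gclm: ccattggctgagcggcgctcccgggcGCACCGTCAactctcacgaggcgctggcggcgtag
Txnrd1: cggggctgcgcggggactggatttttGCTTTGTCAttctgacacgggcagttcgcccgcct
Nfe2l2: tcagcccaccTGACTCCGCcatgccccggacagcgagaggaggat

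TGACNNNGC was present in 12.4% of 32851 windows over all genes, which is 14.0% of 27025 genes, and in 4 of the 8 windowed genes. In 3 of them (Gclm, Nfe2l2 and Txnrd1) it lay before the start, as it did in 10.2% of all windows. TGANTCAGC was present in 1.19% of all windows (1.365% of genes), and TGANTCA in 7.81% (8.97% of genes). Of the 8 genes, Srxn1 alone held either of them. The windows of Nqo1 and Ephx1, the pair of targets with the smallest p-values for diet below, held none of these 3 motifs. The 120 bases before their starts, at chr8:107403206-107403325 (minus strand) and chr1:181017570-181017689 (minus strand), are given for comparison:

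Nqo1: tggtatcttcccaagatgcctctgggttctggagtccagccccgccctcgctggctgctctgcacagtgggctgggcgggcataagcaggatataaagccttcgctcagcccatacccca
Ephx1: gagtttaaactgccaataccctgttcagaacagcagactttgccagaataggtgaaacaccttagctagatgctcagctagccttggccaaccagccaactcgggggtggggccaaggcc

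Such a match is a description of letters, and a window without one says only that these letters are not in these bases. The Ephx1 window lies inside the gene as annotated (chr1:180976210-181020904, minus strand). The bases before the annotated start of Ephx1 were not searched. Txnrd1 had several listed starts, and the match shown also lies inside the gene as annotated (chr10:82833951-82897712, plus strand).

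Depth was 16310214 to 24451821 counts per library. Levels are given below as CPM, counts scaled to library size by the trimmed mean of M-values (TMM), and differences as log2 fold changes, fisetin minus control, with their standard error (SE), from edgeR's quasi-likelihood test with batch as a term. After Benjamini-Hochberg adjustment over all 17890 genes, edgeR called 0 genes for diet at an adjusted p under 0.05 (0.0%), with 0.1449 as the smallest adjusted p. At an unadjusted p under 0.05 it counted 2608 genes (14.6%), of which 1473 were higher with fisetin (8.23%) and 1135 lower (6.34%). DESeq2, run on the same counts, called 154 of 16140 genes (0.954%), and 2817 genes had an unadjusted p under 0.05. A limma-voom fit with quality weights per library called 2390 genes (13.4%), and limma on log2(TPM + 1) called 0. The median log2 fold change of all genes was 0.0008, and 50.2% of them were above 0. Col4a5 was at 18.8 to 25.6 CPM in the 12 libraries, and the kidney markers Umod (thick ascending limb) and Slc34a1 (proximal tubule) were present in all of them, at 1471 CPM or more.

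The differences of the 10 genes were unequal. Ephx1 and Nqo1, which encode enzymes that detoxify epoxides and quinones, and Nfe2l2 were higher with fisetin in 6 of 6 libraries against the control mean. Gclc and Gclm, the pair of subunits for glutathione synthesis, had lower means with fisetin, and the 95% intervals of both, of Keap1, Hmox1, Txnrd1 and Slc7a11, and narrowly of Srxn1, included 0. With edgeR 0 of the 10 genes passed the adjusted threshold (background 0.0%), 4 had an unadjusted p under 0.05 and a higher mean (Ephx1, Nqo1, Nfe2l2 and Srxn1, background 8.23%), and 0 had an unadjusted p under 0.05 and a lower mean (background 6.34%). DESeq2 called 1, Ephx1 (background 0.954%), and limma-voom called 4, Ephx1, Nqo1, Nfe2l2 and Slc7a11 (background 13.4%). The libraries of each diet are numbered 1 to 6. Fisetin 6 stood apart from its diet in its proximal tubule and macrophage scores, described below. Without fisetin 6, edgeR called 83 of all genes (0.464%), among them Ephx1. In that fit 5 of the 10 genes were higher (background 13.3%) and 1 lower (background 12.4%) at an unadjusted p under 0.05. The ranges of the 2 diets overlapped for all 10, where 160 of all genes tested (0.894%) did not overlap. The 10 genes had a median log2 fold change of 0.13, with 7 above 0 and 3 below.

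**Figure D1:**
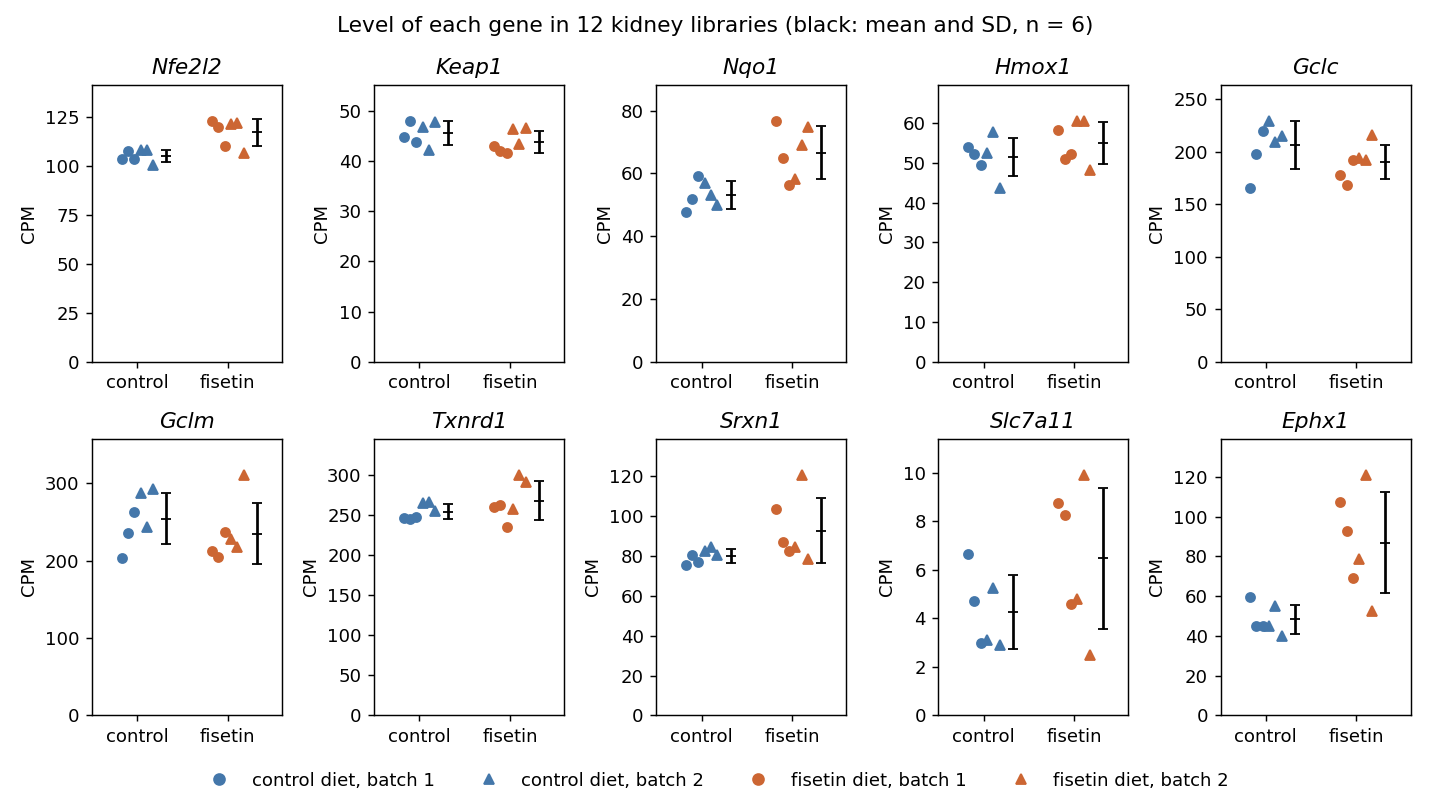
Level of each of the 10 genes in CPM in the 12 libraries, by diet, with batch 1 as circles and batch 2 as triangles, and the mean and SD of 6 libraries in black. The fisetin libraries of Ephx1 run from 52.7 to 121.1 CPM against 39.7 to 59.4 with the control diet, while the points of Keap1 run from 41.5 to 46.4 CPM with fisetin and from 42.1 to 47.9 CPM with the control diet.

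Nfe2l2 (ENSMUSG00000015839, GRCm38 chr2:75675513-75704641, minus strand) is the gene of NRF2 itself. Its lowest, median and highest levels were 100.7, 105.6 and 108.2 CPM with the control diet and 106.9, 120.5 and 123.0 CPM with fisetin. The means were 105.3 ± 3.14 CPM and 117.2 ± 6.83 CPM (SD, n = 6 each). Of the fisetin libraries, 5 stood above every control library, and fisetin 6 lay among the controls. Between diets Nfe2l2 had a log2 fold change of 0.15 ± 0.05 (SE), a level 11.3% higher, with an unadjusted p of 0.00631 and an adjusted p of 0.281 (edgeR's quasi-likelihood test, Benjamini-Hochberg). The differences in mean log2 CPM were 0.16 in batch 1 and 0.14 in batch 2.

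Keap1 (ENSMUSG00000003308, chr9:21229730-21239361, minus strand) encodes the adaptor that hands NRF2 to the ligase. Lowest, median and highest levels of Keap1 were 42.1, 45.8 and 47.9 CPM with the control diet and 41.5, 43.1 and 46.4 CPM with fisetin. The means were 45.5 ± 2.35 CPM and 43.7 ± 2.17 CPM (SD, n = 6 each), and the groups overlapped along most of their range. The log2 fold change of Keap1 was -0.06 ± 0.05 (SE), with a 95% interval from -0.17 to 0.05 and an adjusted p of 0.543 by edgeR's quasi-likelihood test. On the log2(TPM + 1) scale the sign turned, to 0.048, but the median of all genes on that scale was 0.055. Because the interval included 0, no direction is given for this gene.

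Set against each other, the factor and its inhibitor gave a log2 ratio of Nfe2l2 to Keap1, in CPM, of 1.21 ± 0.09 (SD, n = 6) with the control diet and 1.42 ± 0.12 (SD, n = 6) with fisetin. The control libraries ran from 1.08 to 1.36 and the fisetin libraries from 1.20 to 1.52, and 5 of 6 fisetin libraries were above the control mean. The difference of 0.21 had an exact permutation p of 0.015 (two-sided, all 400 arrangements of diet within batch, smallest possible p 0.005), or 0.03 adjusted over the 2 ratios tested. On TPM in place of CPM the difference was 0.19 and no longer passed. Both genes were members chosen with earlier results known, so this p is not independent evidence of the difference in Nfe2l2.

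Glutathione is made from cystine, which the exchanger encoded by Slc7a11 imports, by a ligase whose catalytic subunit is encoded by Gclc and whose modifier subunit is encoded by Gclm. Gclc (ENSMUSG00000032350, chr9:77754535-77794485, plus strand) had lowest, median and highest levels of 164.9, 212.2 and 229.0 CPM with the control diet and 168.0, 191.9 and 216.1 CPM with fisetin. The means were 205.9 ± 22.7 CPM and 190.0 ± 16.3 CPM (SD, n = 6 each), and 5 of 6 fisetin libraries lay below the control mean though none below every control. The log2 fold change was -0.12 ± 0.07 (SE), with a 95% interval from -0.27 to 0.04 and an adjusted p of 0.42 by edgeR's quasi-likelihood test.

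Gclm (ENSMUSG00000028124, chr3:122245557-122270732, plus strand) showed the same arrangement. Lowest, median and highest levels of Gclm were 204.0, 253.1 and 292.3 CPM with the control diet and 204.7, 222.6 and 311.1 CPM with fisetin. The highest value of all 12 libraries was that of fisetin 6, and the other 5 fisetin libraries were below the control mean of 254.3 CPM. For Gclm the log2 fold change was -0.11 ± 0.10 (SE), with a 95% interval from -0.33 to 0.11 and an adjusted p of 0.557 by edgeR's quasi-likelihood test. Without fisetin 6 it was -0.19, with an adjusted p of 0.168 by the same test. Gclm shares 296 exon bases with Gm17494 on the other strand and 244 with the pseudogene Gm6061, whose mean counts were 54.8 and 20.4, and the authors' counting strand is not given in the sources used here, so its reads may not all be its own.

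The log2 ratio of Gclc to Gclm was -0.30 ± 0.08 (SD, n = 6) with the control diet and -0.30 ± 0.12 (SD, n = 6) with fisetin, a difference of 0.01 (exact permutation p = 0.91, also 0.91 adjusted over the 2 ratios). Between the batch-centred log2 CPM of the catalytic and the modifier transcripts, Pearson's r was 0.85 over the 12 libraries, which share the composition described below.

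Slc7a11 (ENSMUSG00000027737, chr3:49892526-50443614, minus strand) was the scarcest of the 10 and the most variable. Its lowest, median and highest levels were 2.89, 3.93 and 6.65 CPM with the control diet and 2.51, 6.54 and 9.93 CPM with fisetin. Fisetin 1, 2 and 5 stood above every control, and fisetin 6 was the lowest of the 12 libraries. Between diets Slc7a11 had a log2 fold change of 0.60 ± 0.32 (SE), with a 95% interval from -0.13 to 1.33 and an adjusted p of 0.386 by edgeR's quasi-likelihood test, and it was 0.33 without fisetin 5. At 46.1 to 174.9 counts per library this was also the thinnest measurement among the 10.

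The thioredoxin arm includes Txnrd1, the cytosolic thioredoxin reductase, and Srxn1, the sulfiredoxin that restores over-oxidised peroxiredoxins. Txnrd1 (ENSMUSG00000020250, chr10:82833951-82897712, plus strand) had lowest, median and highest levels of 245.1, 251.9 and 266.7 CPM with the control diet and 234.8, 261.5 and 300.8 CPM with fisetin. Of the fisetin libraries, 2 (fisetin 5 and 6) lay above every control and 1 (fisetin 3) below every control. For Txnrd1 the log2 fold change was 0.07 ± 0.05 (SE), with a 95% interval from -0.05 to 0.19 and an adjusted p of 0.486 by edgeR's quasi-likelihood test.

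Srxn1 (ENSMUSG00000032802, chr2:152105516-152111376, plus strand) had the window shown above with the TGAGTCAGC match. Its lowest, median and highest levels were 75.4, 80.7 and 84.8 CPM with the control diet and 78.4, 85.8 and 120.9 CPM with fisetin. The control SD was 3.52 CPM and the fisetin SD 16.3 CPM (n = 6 each), because fisetin 1 and fisetin 5 reached 103.8 and 120.9 CPM while fisetin 3, 4 and 6 stayed at the level of the controls. The log2 fold change was 0.21 ± 0.10 (SE), with a 95% interval from -0.0053 to 0.43, an unadjusted p of 0.047 and an adjusted p of 0.339 by edgeR's quasi-likelihood test. Without fisetin 5 it was 0.12.

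Nqo1 (ENSMUSG00000003849, chr8:107388225-107403206, minus strand) encodes a quinone reductase widely read as a measure of NRF2 activity. Lowest, median and highest levels of Nqo1 were 47.6, 52.5 and 59.3 CPM with the control diet and 56.2, 67.0 and 76.7 CPM with fisetin. The means were 53.1 ± 4.39 CPM and 66.6 ± 8.4 CPM (SD, n = 6 each), and 6 of 6 fisetin libraries were above the control mean and 4 above every control. Fisetin 1 and fisetin 6 were the highest, at 76.7 and 74.7 CPM, and fisetin 3 and 4 lay among the controls. For Nqo1 the log2 fold change was 0.33 ± 0.09 (SE), with a 95% interval from 0.13 to 0.52, an unadjusted p of 0.00253 and an adjusted p of 0.261 by edgeR's quasi-likelihood test, and DESeq2 gave an adjusted p of 0.0555. The differences in mean log2 CPM were 0.31 in batch 1 and 0.33 in batch 2.

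Ephx1 (ENSMUSG00000038776, chr1:180976210-181020904, minus strand), the microsomal epoxide hydrolase, had the largest difference of the 10. Its lowest, median and highest levels were 39.7, 45.1 and 59.4 CPM with the control diet and 52.7, 85.6 and 121.1 CPM with fisetin. The means were 48.2 ± 7.44 CPM and 86.9 ± 25.2 CPM (SD, n = 6 each). Of the 6 fisetin libraries, 5 stood above every control, and fisetin 6, at 52.7 CPM, lay among them. Between diets Ephx1 had a log2 fold change of 0.85 ± 0.19 (SE), a 1.8-fold higher level, with a 95% interval from 0.43 to 1.27. The unadjusted p was 0.000673 by edgeR's quasi-likelihood test, the 52nd smallest of all genes. The adjusted p by the same test was 0.223, which did not pass. In mean log2 CPM the differences were 0.84 in batch 1 and 0.78 in batch 2. Fitted to each batch alone, edgeR gave log2 fold changes of 0.85 and 0.86. DESeq2 gave an adjusted p of 0.00291, and without fisetin 6 edgeR's quasi-likelihood test gave a log2 fold change of 0.96 with an adjusted p of 0.0343.

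Hmox1 (ENSMUSG00000005413, chr8:75093621-75100589, plus strand) encodes the inducible haem oxygenase, a target that macrophages and injured tubules also make. Lowest, median and highest levels of Hmox1 were 43.6, 52.2 and 57.6 CPM with the control diet and 48.1, 55.2 and 60.5 CPM with fisetin, and 3 of 6 fisetin libraries (fisetin 1, 4 and 5) lay above every control. The means were 51.5 ± 4.72 CPM and 55.1 ± 5.29 CPM (SD, n = 6 each). For Hmox1 the log2 fold change was 0.10 ± 0.08 (SE), with a 95% interval from -0.08 to 0.27 and an adjusted p of 0.536 by edgeR's quasi-likelihood test.

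Ordered by level per transcript length, in TPM (mean ± SD, n = 12), Gclm came first at 114.1 ± 18.6, followed by Txnrd1 at 63.5 ± 9.79, Gclc at 41.8 ± 6.21, Nfe2l2 at 35.4 ± 5.92, Ephx1 at 32.1 ± 15.6 and Nqo1 at 31.4 ± 6.66. Hmox1 was at 27.6 ± 4.79, Srxn1 at 24.8 ± 5.72, Keap1 at 10.8 ± 1.43 and Slc7a11 at 0.723 ± 0.307. The ranges of neighbours in this order overlapped except between Srxn1 and Keap1 and between Keap1 and Slc7a11, though within a library the upper gene exceeded the next in 12 of 12 for Gclm over Txnrd1 and for Txnrd1 over Gclc. Ephx1 exceeded Nqo1 in 6 of 12 libraries, and its place in the order differed between diets, from the 8th with the control diet at 21.6 ± 3.85 TPM to the 3rd with fisetin at 42.6 ± 16.02 TPM (SD, n = 6 each). The other 9 genes kept their order among themselves in both diets. Transcripts of the factor were 3.06 ± 0.36 times (SD, n = 6) as abundant per length as those of its inhibitor with the control diet and 3.49 ± 0.32 times (SD, n = 6) with fisetin, and those of Gclc were 0.357 ± 0.0203 and 0.378 ± 0.0283 times as abundant as those of Gclm. The 7S RNA genes Rn7s1 and Rn7s2 took 40.3% to 53.1% of all TPM per library, most in control 1, so TPM of every other gene moves with that share.

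**Figure D2:**
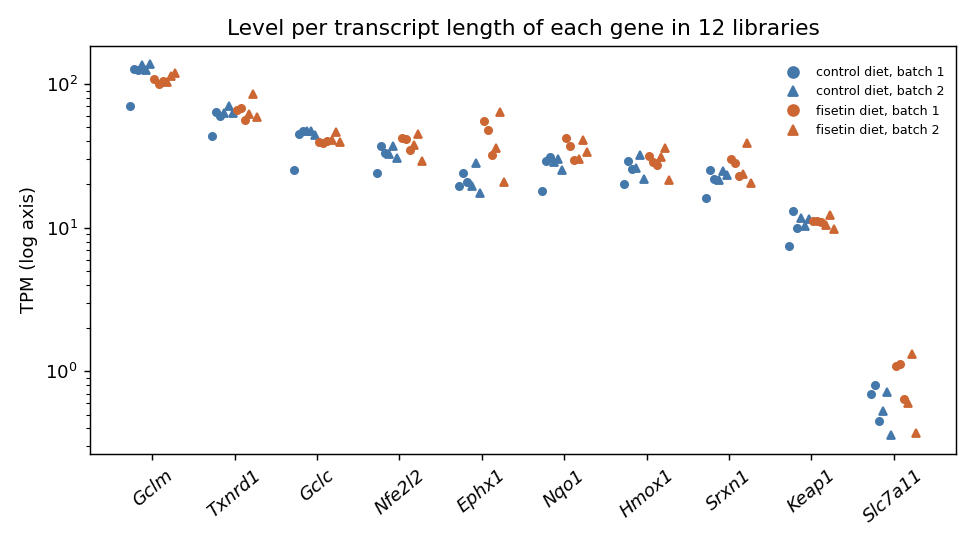
Level of each of the 10 genes per transcript length, in TPM on a log axis, in the 12 libraries, ordered by mean. Gclm lies at 70.2 to 137.0 TPM and Slc7a11 at 0.36 to 1.31 TPM, with control 1 low for most of the genes.

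The 12 libraries also differed in their marker content, and several of the 10 genes moved with it. With bulk tissue, fewer cells of a type and less RNA per cell cannot be told apart. The score of 16 proximal tubule markers (mean log2 CPM) was 9.42 ± 0.37 (SD, n = 6) with the control diet and 8.95 ± 0.57 (SD, n = 6) with fisetin. Of the 16, 1 had a higher mean with fisetin. By edgeR 2 had an unadjusted p under 0.05 and a lower mean (background 6.34%). Their summed level ran from 15940 to 31430 CPM with the control diet and from 10670 to 28930 CPM with fisetin. Macrophage markers were higher in mean for 9 of 9 (summed level 591.8 to 1070 CPM with the control diet and 541.3 to 1383 CPM with fisetin), T and NK cell markers for 7 of 7 tested (18.6 to 51.0 CPM and 21.0 to 72.8 CPM) and B cell markers for 7 of 7 (34.3 to 4919 CPM and 74.3 to 8987 CPM). At an unadjusted p under 0.05 by edgeR, 2 macrophage, 4 T and NK cell and 0 B cell markers were higher (background 8.23%). Principal cell markers were lower in mean for 9 of 9, all 9 with an unadjusted p under 0.05 (background 6.34%). Their summed level ran from 387.1 to 563.2 CPM with the control diet and from 184.0 to 396.9 CPM with fisetin. Injured tubule markers were higher in mean for 4 of 8 (3553 to 5094 CPM and 2964 to 5464 CPM). Thick ascending limb markers were higher in mean for 0 of 7, distal tubule markers for 1 of 5 tested and intercalated cell markers for 3 of 7. Podocyte markers were higher in mean for 2 of 7, endothelial cell markers for 2 of 8 and fibroblast and myofibroblast markers for 4 of 8. None of these markers was at 0 in all libraries.

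Fisetin 6 was unlike the other 5 fisetin libraries in its proximal tubule and macrophage scores. Its proximal tubule score was 9.79, against 8.27 to 9.34 in those 5, and its macrophage score was 5.52, below that of every other library. Its principal cell score of 4.44 was not apart, lying within the 3.50 to 4.50 of those 5 and below the lowest control, 4.59. Fisetin 6 had the lowest Ephx1, Slc7a11 and Nfe2l2 and the highest Gclm of the fisetin group, and one of the highest values of Nqo1.

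Across the 12 libraries, with batch means removed, Pearson's r with the proximal tubule score was -0.97 for Slc7a11, -0.90 for Ephx1, -0.85 for Srxn1, -0.77 for Nfe2l2 and -0.76 for Hmox1. It was 0.90 for Gclm and 0.77 for Gclc, and -0.38 for Nqo1. With the means of batch and diet both removed, it was -0.98 for Ephx1, -0.97 for Slc7a11, 0.89 for Gclm and -0.02 for Nqo1. With the macrophage score instead and batch means removed, r was 0.95 for Slc7a11, 0.87 for Ephx1 and 0.75 for Srxn1. It was 0.78 for Nfe2l2, 0.77 for Hmox1, -0.97 for Gclm, -0.83 for Gclc and 0.21 for Nqo1. With the fibroblast and myofibroblast score and the means of batch and diet both removed, r was 0.85 for Ephx1, 0.89 for Slc7a11, -0.86 for Gclm and 0.02 for Nqo1. With the injured tubule score it was 0.71, 0.77, -0.89 and -0.41 in the same order. The proximal tubule, macrophage, fibroblast and injured tubule scores cannot be told apart by these values. The principal cell score was not set against the genes. The libraries share composition, depth and scaling, and all these values are descriptions. Among the 10 genes, Slc7a11 and Ephx1 ran together within diets (r = 0.96, n = 12, batch and diet means removed), Slc7a11 and Gclm ran opposite (r = -0.94), and Nqo1 and Ephx1 had an r of 0.07. Nqo1 was closest to Txnrd1 of the thioredoxin arm, at 0.73.

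**Figure D3:**
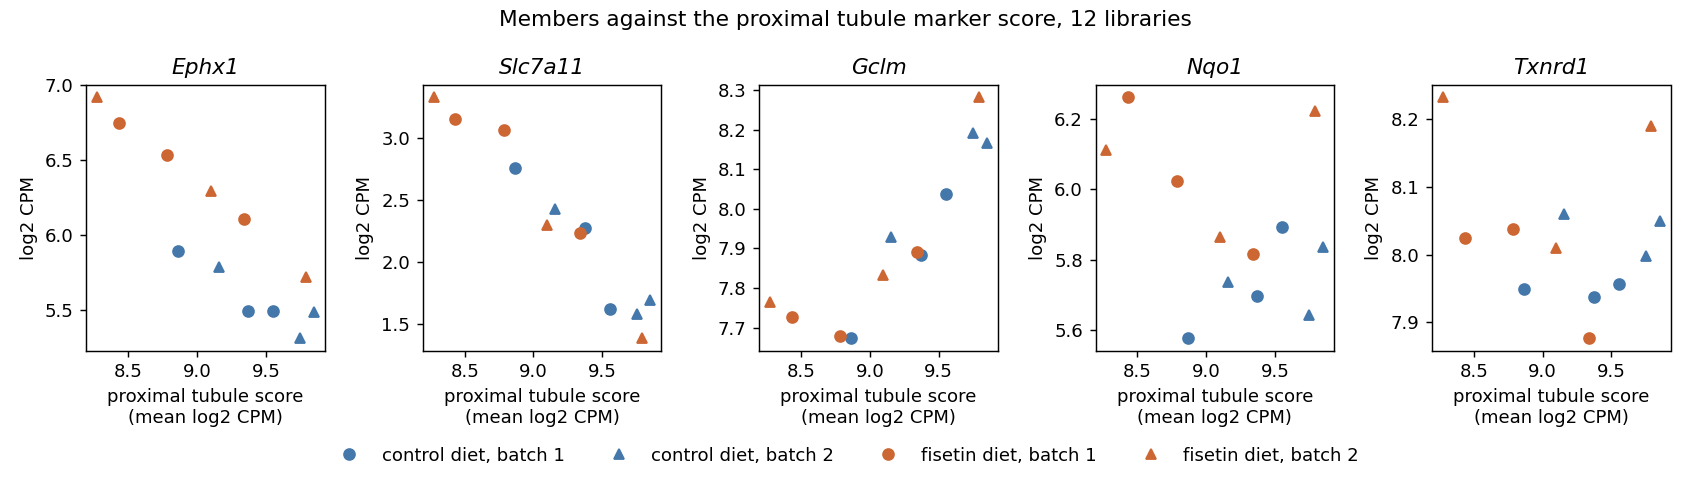
Log2 CPM of 5 of the genes against the proximal tubule score (mean log2 CPM of 16 markers) in the 12 libraries, coloured by diet, with batch 1 as circles and batch 2 as triangles. Ephx1 and Slc7a11 descend and Gclm ascends with the score, and fisetin 1 and 5, at scores of 8.43 and 8.27, lie below the lowest control score of 8.87, where no control point can be set beside them.

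When the proximal tubule score was added to the edgeR fit, the log2 fold change of Ephx1 was 0.47 ± 0.06 (SE), with an adjusted p of 0.00352 by edgeR's quasi-likelihood test, and Ephx1 was 1 of 7 genes called in that fit (0.0391% of all). That of Nqo1 was 0.32, near its value without the score, and that of Nfe2l2 was 0.10. Srxn1 came to 0.05, Slc7a11 to -0.06 and Gclm to 0.04. With a score of macrophage, T, NK and B cell markers in its place, the log2 fold change was 0.53 for Ephx1, 0.36 for Nqo1, 0.12 for Nfe2l2, 0.12 for Slc7a11, 0.09 for Srxn1 and 0.01 for Gclm, and none of them passed the adjusted threshold. The scores differ with diet themselves, and their part in the results was not tested further.

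None of the 10 genes passed the adjusted threshold for a difference between batches. For the batch term edgeR called 0 of 17890 genes (0.0%), with 604 at an unadjusted p under 0.05 (3.38%), among them Gclc, Gclm and Txnrd1, which were higher in batch 2 by 0.16, 0.22 and 0.13 on the log2 scale (adjusted p = 0.892 for each by edgeR's quasi-likelihood test). For the interaction of diet with batch it called 0 genes (0.0%), with 376 at an unadjusted p under 0.05 (2.1%), and no gene of the 10 was among them. The batch term and the interaction were run with edgeR alone.

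The other genes of the pathway lay on both sides of 0. Of 78 listed genes 75 were tested, with 39 higher and 36 lower in mean, a median log2 fold change of 0.01 in a range from -1.04 to 1.29, and 12 higher and 4 lower at an unadjusted p under 0.05 (background 8.23% and 6.34%). None of the 75 passed with edgeR (background 0.0%), DESeq2 called 2 (background 0.954%), and 3 had ranges that did not overlap between diets (background 0.894%). The lists were written with earlier results of these data known, and they describe rather than test.

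Among partners and competitors at the DNA, 5 of 10 tested genes were higher in mean and 5 lower, and the list's median log2 fold change was 0.00. Bach1, the repressor that occupies antioxidant response elements, was at 73.7 ± 3.43 CPM with the control diet and 78.8 ± 4.37 CPM with fisetin (SD, n = 6 each), which is a log2 fold change of 0.10 ± 0.05 (SE). Its relative Bach2 had a log2 fold change of 0.23 ± 0.10 (SE, adjusted p = 0.329 by edgeR's quasi-likelihood test). For Bach2 the differences in mean log2 CPM were 0.01 in batch 1 and 0.45 in batch 2. Mafk, a small MAF partner, was at -0.09 ± 0.05 (SE), a sign that turned to 0.02 on the log2(TPM + 1) scale, and Nfe2l1, the gene of a related factor, was at -0.06 ± 0.04 (SE).

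In the machinery that turns NRF2 over, 5 of 10 genes were higher in mean, with a median of 0.01. Palb2, whose product binds KEAP1 through a motif like that of NRF2, had the smallest p of the list, with a log2 fold change of 0.31 ± 0.13 (SE) at 3.48 to 4.32 CPM in group mean (adjusted p = 0.319 by edgeR's quasi-likelihood test). Sqstm1, the autophagy adaptor p62 that can sequester KEAP1 and is itself an NRF2 target, was at 559.1 ± 31.2 CPM and 519.7 ± 64.0 CPM (SD, n = 6 each), which is a log2 fold change of -0.11 ± 0.08 (SE). Rbx1, the ring subunit of the ligase, was at -0.06 ± 0.05 (SE), a sign that turned to 0.0016 on the log2(TPM + 1) scale.

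Of 11 tested genes of glutathione supply and use, 6 were higher and 5 lower in mean, with a median of 0.01. Ggt1, the brush border enzyme that breaks glutathione down outside the cell, had the smallest p of the list, with 648.3 ± 118.3 CPM and 500.5 ± 129.6 CPM (SD, n = 6 each) and a log2 fold change of -0.37 ± 0.16 (SE, adjusted p = 0.324 by edgeR's quasi-likelihood test). Mgst1, a membrane glutathione transferase, was at 0.22 ± 0.10 (SE), and Abcc4, an efflux pump, at 0.23 ± 0.12 (SE). Mgst2, another membrane transferase, chosen after its value was seen, had the list's largest log2 fold change, 0.71 ± 0.44 (SE), at a level near the filter. With the proximal tubule score as a covariate, Ggt1 was at -0.10, Mgst1 at 0.10 and Abcc4 at 0.15.

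In the thioredoxin and peroxiredoxin list 4 of 10 genes were higher and 6 lower in mean, with a median of -0.06. Txnrd3 and Txn2, the mitochondrial thioredoxin gene, had log2 fold changes of -0.24 ± 0.07 and -0.23 ± 0.08 (SE), with adjusted p of 0.274 and 0.289 by edgeR's quasi-likelihood test. Txnip, which inhibits thioredoxin, was at 0.17 ± 0.07 (SE). Of the 6 genes of NADPH supply 4 were higher in mean, with a median of 0.09, and G6pdx and Pgd, the dehydrogenases of the pentose phosphate pathway, were both at 0.15, with SE of 0.06 and 0.07. Me1, the cytosolic malic enzyme, was at -0.21 ± 0.14 (SE). With the proximal tubule score as a covariate, Txnrd3 was at -0.18, Txn2 at -0.10 and Txnip at 0.10. In that fit G6pdx was at 0.07, Pgd at 0.04 and Me1 at 0.01.

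Of 8 genes of haem and iron handling 2 were higher and 6 lower in mean, with a median of -0.07. The pair with higher means was Blvrb, a biliverdin reductase, at 0.35 ± 0.11 (SE), and Slc40a1, the iron exporter ferroportin. Slc40a1 was at 92.6 ± 3.0 CPM with the control diet and 100.4 ± 2.63 CPM with fisetin (SD, n = 6 each), and 6 of 6 fisetin libraries stood above every control, a log2 fold change of 0.12 ± 0.04 (SE) with an adjusted p of 0.281 by edgeR's quasi-likelihood test. Blvra was at -0.19 ± 0.09 and Hmox2, the constitutive haem oxygenase, at -0.07 ± 0.06 (SE). Hmox2 turned to 0.01 on the log2(TPM + 1) scale. With the proximal tubule score as a covariate, Blvrb was at 0.15 and Slc40a1 at 0.10.

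The list of other detoxification genes held both DESeq2 calls. Of 20 tested 13 were higher and 7 lower in mean, with a median of 0.08. The extremes, chosen after their values were seen, were Gsta1 at 1.29 ± 0.72 (SE) and Ces1g at -1.04 ± 1.26 (SE). Gsta2, a glutathione transferase, was at 219.5 ± 25.3 CPM and 309.0 ± 41.9 CPM (SD, n = 6 each) and had a log2 fold change of 0.50 ± 0.08 (SE), with no overlap between diets and an adjusted p of 0.145 by edgeR's quasi-likelihood test and 0.000136 by DESeq2. Gstm1, of another class of the same enzymes, was at 383.8 ± 24.6 CPM and 518.9 ± 71.9 CPM (SD, n = 6 each) and had a log2 fold change of 0.43 ± 0.09 (SE), with no overlap and adjusted p of 0.202 and 0.0024 by the same tests. Akr1c13, an aldo-keto reductase, was at 0.34 ± 0.10 (SE). These 3 genes belong to families of closely related copies. Counts were not whole in 12 of 12 libraries for Gsta2 and in 9 for Akr1c13, so their own values are uncertain, and in 0 for Gstm1.

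**Figure D4:**
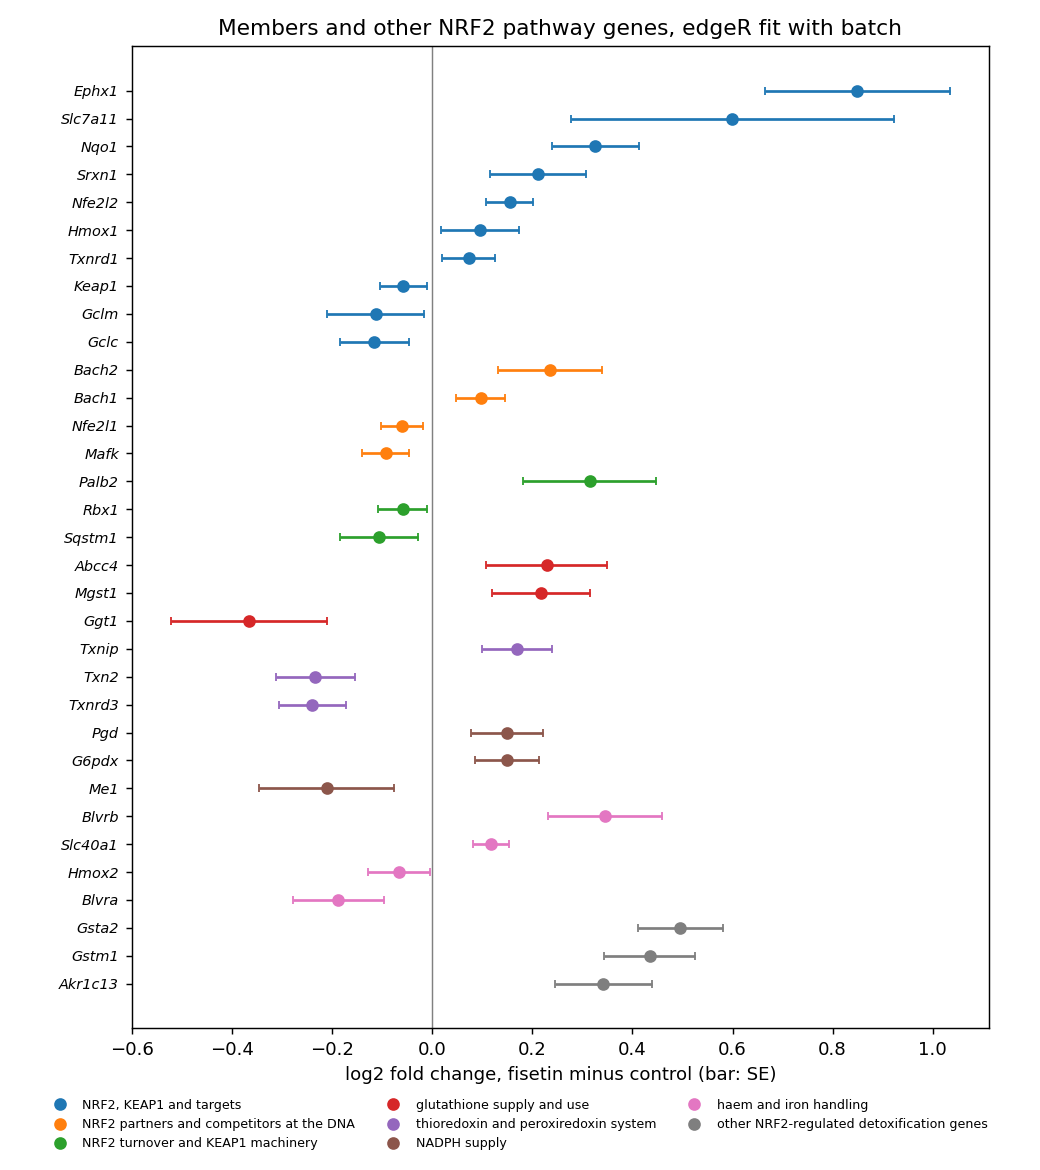
Log2 fold change, fisetin minus control, with its SE, for the 10 genes and the named genes of the 7 pathway lists, from the edgeR fit with batch. Of the genes plotted, Ephx1 lies farthest to the right at 0.85 and Ggt1 farthest to the left at -0.37. Gsta1, Mgst2 and Ces1g, given in the text as extremes of their lists, are not plotted.

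For each of the 10 genes, the tested genes with the most similar course over the 12 libraries (batch-centred log2 CPM, mean log2 CPM of at least 0) were looked up as a description. Closest to Ephx1 was Eda2r, with a Pearson's r of 0.983. Closest to Gclm was Abhd17c at 0.988, closest to Slc7a11 Map4 at 0.979, and closest to Srxn1 Pik3r6 at 0.972. Hmox1 was closest to the chemokine gene Ccl7 at 0.955, Nqo1 to Gm42763 at 0.946, Txnrd1 to Gm37914 at 0.939, Gclc to Prxl2a at 0.938, Nfe2l2 to Tmem50a at 0.934 and Keap1 to Rabac1 at 0.905. None of the 10 genes was among the closest pair of another of the 10.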

How the data were processed

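Kidney messenger RNA was measured in 12 libraries. Per the submitters' processing notes, fastp, STAR, featureCounts and DESeq2 were used with builds GRCm38 and mm10. For annotation release, strand and counting options nothing is given in the sources used here. Per the labels' protocols, RNA of high integrity went into libraries made with the KAPA mRNA HyperPrep kit. Per the file headers, the authors deposited estimated counts, TPM and FPKM per library. The estimated counts deposited by the authors are not scaled for depth, and 13.9% of those above 0 were not whole (tolerance 1e-06), among them values of Gclm in 12 and Slc7a11 in 11 of 12 libraries, so they were rounded. The TPM deposited by the authors are scaled per transcript length to a fixed total. The FPKM deposited by the authors are scaled per length and depth and were not used. All 36 value columns were matched to a library by name. Of the genes, 25636 were never above 0. Over 66 library pairs the mean squared difference was at least 6.84 times counting noise, far from that of a library deposited in duplicate.

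The 10 genes, the pathway lists, the marker lists and the rule for named genes were chosen with earlier results of these data known. The rule took the 10 genes, up to 3 genes of smallest p per pathway list, and Hmox2, Bach1, Sqstm1 and Nfe2l1. Libraries were numbered in accession order, which pairs nothing. In R 4.3.3, genes passing filterByExpr by diet (minimum count 10) were scaled with TMM and fitted with edgeR 4.0.16 (glmQLFit, robust, batch and diet, glmQLFTest, two-sided), with Benjamini-Hochberg adjustment over all genes tested and a threshold of 0.05. Each SE was computed from the log2 fold change and its F value. Intervals of 95% use 9 residual degrees of freedom, fewer than the moderated test, so they are wider than the p implies. Marker scores were mean log2 CPM (prior count 2). Alternatives were DESeq2 1.42.0, limma 3.58.1 (voom with quality weights, and on log2 TPM with pseudocounts of 1 and 0.1), other scalings and filters, each batch alone, a marker score as covariate, and leaving out each library. The edgeR steps were tested on simulated data in which genes varied independently of each other. At the adjusted threshold they recovered 24.7% of 1.3-fold changes, 56.7% of 1.5-fold, 80.7% of 2-fold and 94% of 3-fold. Of the calls, 3.99% were false. A gene with a small difference that did not pass is therefore not shown to be unchanged. Promoter windows came from RefSeq on GRCm38.p6 and gene positions from GENCODE M21 on GRCm38.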

Additional observations from a re-analysis of the deposited data

Results flagged for a closer look

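For the 33 named genes, the 66 groups of 6 libraries were checked for a library apart, meaning a gap to the nearest other library that takes more of the group's range than Dixon's 95% critical value. There were 6 such cases, and chance gives such a gap in about 1 in 20 groups. Gclm stood apart in fisetin 6, at 311.1 CPM with the nearest at 237.1 CPM, the library whose proximal tubule score was also the highest of its diet. Bach2 stood apart in fisetin 5, at 26.7 CPM with the nearest at 21.1 CPM. Abcc4 was low in control 6, at 113.1 CPM with the nearest at 166.8 CPM. In control 5, Txnrd3 was low at 24.2 CPM with the nearest at 29.3 CPM, and Nfe2l1 was low at 240.4 CPM with the nearest at 247.9 CPM. Slc40a1 was high in fisetin 2, at 105.6 CPM with the nearest at 100.4 CPM.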

How the results depend on the processing

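No paired analysis was possible because the labels give the libraries no replicate numbers. The count of 0 genes for diet became 154 with DESeq2, 2390 with limma-voom with quality weights, 1 in batch 1 alone and 7 with the proximal tubule score as a covariate. Leaving out 1 library gave 0 to 83, with 83 without fisetin 6, 1 without fisetin 4 and 0 otherwise. Of the 10 genes, limma-voom, which called 13.4% of all genes, called 4 (Ephx1 0.92, Nqo1 0.27, Nfe2l2 0.18 and Slc7a11 0.78 on the log2 scale). Over 24 alternatives Ephx1 ran from 0.47 to 0.96, Nqo1 from 0.27 to 0.41 and Nfe2l2 from 0.10 to 0.24. On log2(TPM + 1) and log2(TPM + 0.1), where the median of all genes moved to 0.05 and 0.08, signs turned for Keap1 (0.048 and 0.053), Mafk (0.015 and 0.017), Rbx1 (0.0016 and 0.0020) and Hmox2 (0.013 and 0.014). With the proximal tubule score they turned for Hmox1 (-0.0056), Gclm (0.041), Slc7a11 (-0.056), Sqstm1 (0.0019), Me1 (0.010) and Hmox2 (0.013), and with the immune score for Gclm (0.0066) and Hmox2 (0.00023). Keap1 turned in batch 2 alone (0.0014) and Rbx1 in batch 1 alone (0.033). The log2 ratio of Nfe2l2 to Keap1 differed between diets, fisetin minus control, by 0.19 with TPM, 0.27 in batch 1 and 0.15 in batch 2. Within a batch, 3 against 3 libraries cannot go below an exact p of 0.1 in the permutation test. Without 1 library that difference was 0.17 to 0.25. For the log2 ratio of Gclc to Gclm the difference was -0.0063 in batch 1 and -0.028 to 0.058 without 1 library. The cause was not tested. Batch and interaction counts stayed 0 in the alternatives run. Among the genes named by the rule, counts per library were lowest for Slc7a11 (46.1 to 174.9) and Palb2 (57 to 130). The part of depth in their spread was not tested.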
